A study of Mus musculus with 8 samples.

Results

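The genes described here are the metallothioneins Mt1 and Mt2 and the 3 Gadd45 genes Gadd45a, Gadd45b and Gadd45g, 5 of the 47311 mouse genes to which the deposited transcripts were matched. They were measured in LSK cells, marrow cells sorted as Lin-, Sca1+ and Kit+, a gate that holds blood stem cells and the multipotent progenitors next to them. Mt1 and Gadd45g were picked because their RNA was high in old Asxl2 knockout (KO) mice, so for these 2 genes every comparison that uses the old mice is given as a description without a test. Mt2, Gadd45a and Gadd45b were taken in as the relatives of those 2 genes and were tested throughout. The 4 groups were Asxl2 KO and Asxl2 wild type (WT) at old age and the same genotypes at young age, with 2 mice each. Old mice were over 1 year of age and young mice 8 to 12 weeks. Polyadenylated RNA was amplified with the SMART-Seq v4 kit for low input. The 2 mice of a group came from the labelled batches 1 and 2, and each of the 4 litters gave a KO and a WT littermate, matched in age and batch. How the Asxl2 allele was made, and the sex of the mice, are not given in the sources used here. Old mice numbered 1 and young mice numbered 2 belong to batch 1, and the numbers otherwise only name mice.

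Metallothioneins are small proteins rich in cysteine that bind zinc and copper and buffer their free ions. Their genes are switched on by the zinc-sensing transcription factor Mtf1, which binds metal response elements in their promoters, and also by glucocorticoids and by oxidants. The Gadd45 genes encode small acidic nuclear proteins that are made when cells meet DNA damage, cytokines or other stress. Gadd45 proteins bind the kinase Map3k4 upstream of the p38 and JNK kinases, and they bind the cell cycle proteins Cdk1, Pcna and p21. In blood cells Gadd45b and Gadd45g are known for their induction by cytokines and Gadd45a for its induction by p53 and by stress.

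The bases before the transcription start are shown for Mt1, Mt2 and Gadd45g, since these are the 3 genes whose RNA was higher in every old library than in every young one. The sequences are RefSeq's, on build GRCm38.p6, read 5′ to 3′ on the gene's own strand, which is the plus strand for all 3, and each ends at the last base before the RefSeq start. They lie at chr8:94178839-94179088 for Mt1, chr8:94172368-94172617 for Mt2 and chr13:51846425-51846674 for Gadd45g. Capitals mark the core of the metal response element, searched as TGCACNC or TGCGCNC on both strands.
Mt1: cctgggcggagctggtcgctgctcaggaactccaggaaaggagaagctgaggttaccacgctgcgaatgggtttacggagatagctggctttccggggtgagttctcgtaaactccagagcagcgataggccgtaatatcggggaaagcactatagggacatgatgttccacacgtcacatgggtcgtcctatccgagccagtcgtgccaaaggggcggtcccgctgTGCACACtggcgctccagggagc
Mt2: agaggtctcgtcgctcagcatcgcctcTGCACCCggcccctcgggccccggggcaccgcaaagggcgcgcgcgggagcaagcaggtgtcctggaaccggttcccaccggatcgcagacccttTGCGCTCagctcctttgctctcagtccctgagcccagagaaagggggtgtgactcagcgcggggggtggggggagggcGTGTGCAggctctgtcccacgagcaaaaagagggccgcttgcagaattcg
Gadd45g: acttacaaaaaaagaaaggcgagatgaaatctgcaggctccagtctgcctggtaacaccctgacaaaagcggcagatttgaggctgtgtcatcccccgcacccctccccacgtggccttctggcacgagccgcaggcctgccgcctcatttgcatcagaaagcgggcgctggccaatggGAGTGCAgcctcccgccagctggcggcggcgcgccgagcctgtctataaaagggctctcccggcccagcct
The 250 bases before the Mt2 start held 3 matches, at 223, 128 and 50 bases before the start. At least 3 matches were present in 1.26% of 32851 promoter windows of the same length, and any match in 21.4%. Mt1 and Gadd45g held 1 match each, at 23 and 71 bases before the start, and Gadd45a and Gadd45b held none. The RefSeq start of Mt1 lies upstream of other starts that the GENCODE vM21 annotation lists at 94179211 and 94179241 on chromosome 8. That of Mt2 likewise lies upstream of GENCODE starts at 94172664 and 94172860. The letters TATAAA, searched as the TATA box, lay at base 129 of the measured Mt1 transcript and base 90 of that of Mt2. Which starts these cells used was not tested, so the printed windows may not adjoin them. Searched in the same way, the first 150 bases of the measured Mt1 transcript held 4 matches. At least 4 were present in 0.0535% of 84166 annotated transcripts. The first 150 bases of the measured Mt2 transcript held 3 matches (0.333% of transcripts have at least 3). Those of Gadd45g held 2 matches (2.25%), those of Gadd45a 1 (14.7%) and those of Gadd45b none. The motif cores are short, and a match describes the letters in a window.

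Library totals lay between 45737972 and 80388500 estimated counts. Asxl2 RNA was at 5.34 and 4.99 TPM (a transcript level scaled for transcript length and depth) in old KO libraries against 30.0 and 23.0 TPM in old WT libraries. Young KO libraries had 4.64 and 5.63 TPM, against 30.8 and 23.7 TPM in young WT. KO over WT at both ages, the log2 change was -2.10 (SE 0.17, edgeR adjusted p = 0.000408). Litter 1, the old pair of batch 1, stood apart by Xist RNA, which female cells make, at 3.33 TPM in its KO and 3.61 TPM in its WT mouse, against at most 0.0612 TPM in the other 6 libraries. The gate markers were present in all 8 libraries, but Kit was at 63.4 and 87.4 TPM in old KO libraries, 146.1 and 218.6 TPM in old WT and 133.1 to 547.2 TPM in the young ones. Ly6a, which encodes Sca1, was at 660.6 and 355.1 TPM in old KO libraries and at 149.6 to 303.7 TPM in the others. Among 9 lists of cell type markers, none had a gene at 0 in every library. The summed neutrophil markers ran from 12.4 TPM in old WT 1 to 1582 TPM in young KO 1, and the erythroid markers from 1414 TPM in old KO 2 to 3221 TPM in young WT 1. Car2 made up most of the erythroid sum, with 1296 TPM in old KO 2 and 1896 TPM in young WT 1. The globin gene Hba-a1 was at 3.18 and 0.103 TPM in old KO and 10.95 to 246.5 TPM in the other libraries. Another, Hbb-bt, did not follow, at 59.9 and 36.7 TPM in old KO and 31.7 TPM in old WT 1. The 8 megakaryocyte and platelet markers summed to 160.2 to 199.8 TPM in old and 93.2 to 142.4 TPM in young libraries. No single marker of the 8 had every old library above every young one. Ppbp went the other way in KO mice, at 3.02 and 2.21 TPM in old against 7.84 and 4.17 TPM in young. The 10 stroma and endothelium markers summed to 44.9 to 54.0 TPM in KO and 62.6 to 88.1 TPM in WT libraries. Most of that sum was Pecam1 (24.6 to 45.8 TPM) and Emcn (2.85 to 29.3 TPM), while Col1a1 reached at most 1.53 TPM. Lepr went the other way in old mice, at 8.96 and 7.65 TPM in KO against 3.77 and 0.534 TPM in WT. The part of these other cells in the results that follow was not tested. In RNA from a pool of sorted cells, fewer cells of a type and less RNA per cell cannot be told apart.

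**Figure D1:**
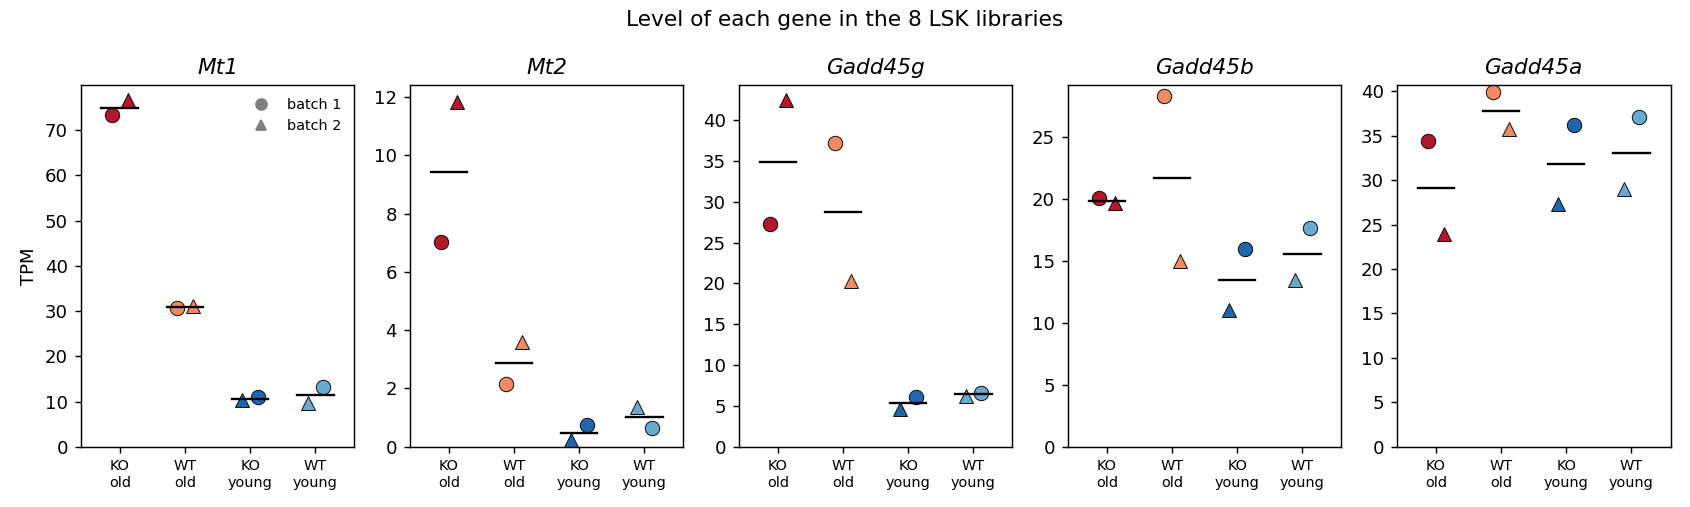
TPM of each of the 5 genes (vertical axes, each starting at 0) in the 8 libraries, grouped on the horizontal axis by genotype within age, old groups first; circles are batch 1, triangles batch 2, and bars the mean of the 2 mice. Mt1 stands at 73.3 and 76.6 TPM in old KO, 30.6 and 31.1 TPM in old WT and 9.62 to 13.2 TPM in the young libraries, while Gadd45a spans 23.9 to 39.9 TPM with old and young libraries overlapping.

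Mt1 (ENSMUSG00000031765, chromosome 8, 94179082 to 94180327, plus strand, mm10) was the metallothionein with most RNA. Its level was 73.3 and 76.6 TPM in old KO mice, against 30.6 and 31.1 TPM in old WT mice. In young mice it was 10.3 and 11.0 TPM in KO, against 9.62 and 13.2 TPM in WT. Both old KO libraries lay above both old WT libraries, all 4 old libraries lay above all 4 young ones, and the young KO and young WT libraries overlapped. Of the 25543 genes tested, 23.5% had both old KO libraries above both old WT libraries and 4.73% had every old library above every young one, and since Mt1 was picked for its level in old KO nothing is read from its place among them. Ordered by mean, old KO (75.0 ± 2.35 TPM) came first, then old WT (30.8 ± 0.367 TPM), with young WT (11.4 ± 2.53 TPM) and young KO (10.6 ± 0.513 TPM) not separated by their spread (SD, n = 2 each).

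The littermates gave the same picture for Mt1. In the old litters KO over WT was 2.40 in litter 1 and 2.47 in litter 2 as a ratio of TPM. In the young litters it was 0.834 in litter 3 and 1.07 in litter 4. Old over young within a batch, the ratio was 6.66 and 7.46 in KO mice and 2.32 and 3.23 in WT mice (batches 1 and 2). In the edgeR fit, the log2 change of Mt1 was 1.49 (SE 0.34) KO over WT in old mice, 2.85 (SE 0.36) old over young in KO mice and 1.35 (SE 0.34) old over young in WT mice. The interaction, the extra age change in KO over that in WT, was 1.51 (SE 0.48). These comparisons share libraries. Without litter 1 the 3 changes of Mt1 were 1.32, 3.01 and 1.78, in that order. Young KO over young WT, the one comparison without old mice, gave -0.02 (SE 0.34, edgeR adjusted p = 0.991). What the rise in old KO was set against when Mt1 was picked is not given. The young mice may therefore have had a part in the choice.

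Mt2 (ENSMUSG00000031762, chromosome 8, 94172664 to 94173568, plus strand), the neighbour of Mt1 with the same metal-binding role, was the scarcer of the pair. It was at 7.01 and 11.8 TPM in old KO mice, against 2.16 and 3.59 TPM in old WT mice. Young KO mice had 0.241 and 0.737 TPM, against 1.38 and 0.645 TPM in young WT mice. All 4 old libraries exceeded all 4 young libraries, and both old KO libraries exceeded both old WT libraries. The counts behind these levels were 141 and 124 in old KO, 33 and 43 in old WT, 3 and 11 in young KO, and 15 and 10 in young WT. The exact 95% Poisson interval, which covers counting error alone, was 0.619 to 8.77 for the 3 counts of young KO 1 and 119 to 166 for the 141 counts of old KO 1. Mt2 made up 8.73% and 13.4% of the summed Mt1 and Mt2 TPM in old KO, 6.60% and 10.4% in old WT, 2.29% and 6.28% in young KO, and 12.5% and 4.66% in young WT.

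With age over both genotypes Mt2 rose by 2.74 on the log2 scale (SE 0.68, edgeR adjusted p = 0.0309), from a fit of 4 old against 4 young mice. These mice came from 2 old and 2 young litters. The fit had no litter term, so littermates counted as independent replicates of age. Counts of Mt2 in young libraries were low, and Mt2 reached the count cutoff of the filter in 4 old and 2 young libraries, where 2 were needed. The means were 6.15 ± 4.30 TPM in old and 0.750 ± 0.471 TPM in young libraries (SD, n = 4 each). Of the 25543 genes tested, 13.9% were called in this comparison, 4.34% as higher. Mt2 was the 1 of 3 tested members that was called. The change was 2.40 in batch 1 alone and 3.18 in batch 2 alone. Each batch held 1 old and 1 young litter, so within a batch age cannot be told apart from litter. The call was kept in 8 of 15 alternatives, with adjusted p between 1.14e-05 and 0.386. It was lost without young WT 1 (0.0552), young KO 2 (0.130), old KO 1 (0.120), old KO 2 (0.0723) or litter 1 (0.386), with limma on log2(TPM + 1) (0.0849) and with the length trend removed (0.0779).

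Within 1 genotype or 1 age the change of Mt2 did not pass the threshold in edgeR. It was 4.11 (SE 0.82, adjusted p = 0.0861) old over young in KO mice, where 0.0861% of all genes were called. It was 1.45 (SE 0.74, adjusted p = 0.389) old over young in WT mice, where 0.0861% were also called. KO over WT it was 1.89 (SE 0.71, adjusted p = 0.164) in old mice, where 0.65% of genes were called. In young mice KO over WT was -0.77 (SE 0.80, adjusted p = 0.766), with opposite directions in the litters, where the TPM ratio KO over WT was 1.14 in litter 3 and 0.174 in litter 4. That change was 0.27 without young KO 1 and -2.35 without young KO 2. The interaction was 2.67 (SE 1.07, adjusted p = 1), with 0.00391% of genes called. The change in KO mice passed with DESeq2 (adjusted p = 0.000131), with no filter on low counts (0.000289), and without young KO 1 (0.0417), young WT 1 (0.0127) or young WT 2 (0.00284).

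Both metallothioneins have short transcripts, with effective lengths of 270 bases for Mt1 and 286 bases for Mt2, against 787 to 996 bases for the Gadd45 genes. Libraries differed in how strongly TPM fell with transcript length. Among protein-coding genes with a mean above 5 TPM, log2(TPM + 1) was regressed on log2 effective length. The slope was -0.891 and -0.774 in old KO, -0.564 and -0.581 in old WT, -0.618 and -0.619 in young KO, and -0.272 and -0.556 in young WT. For the fit, a lowess trend of scaled counts on length was removed in each library, in place of these straight slopes. The old KO over old WT change of Mt1 was then 0.76 in place of 1.49 and that of Mt2 was 1.21 in place of 1.89. For Mt1 KO over WT at both ages it was 0.21 in place of 0.75. The age change of Mt1 was 2.34 in KO and 1.197 in WT mice with the trend removed. Gadd45g moved less, to 2.70 with age in KO mice and 2.02 in WT mice.

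Gadd45g (ENSMUSG00000021453, chromosome 13, 51846678 to 51848468, plus strand), the cytokine-induced member of its family, was higher in old mice of both genotypes. It was at 27.3 and 42.4 TPM in old KO mice, against 37.2 and 20.3 TPM in old WT mice. In young mice it was at 4.62 and 6.12 TPM in KO, against 6.26 and 6.57 TPM in WT. All old libraries lay above all young ones. Old KO and old WT libraries overlapped, and the lowest old library was a WT one. Old over young within a batch, the TPM ratio was 4.46 and 9.18 in KO mice and 5.66 and 3.25 in WT mice (batches 1 and 2).

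The level of Gadd45g in old KO against old WT mice depended on the litter. KO over WT was 0.734 in litter 1 and 2.09 in litter 2, and 0.932 and 0.739 in the young litters 3 and 4. The log2 change was 0.56 (SE 0.32) KO over WT in old mice, and it was -0.10 without old KO 2 and 1.13 without litter 1. With age it was 2.71 (SE 0.34) in KO mice and 1.99 (SE 0.33) in WT mice, with an interaction of 0.73 (SE 0.45). In young mice KO over WT was -0.17 (SE 0.32, edgeR adjusted p = 0.883). The age change over both genotypes was 2.35 (SE 0.25), and it was 2.19 in batch 1 and 2.48 in batch 2.

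**Figure D2:**
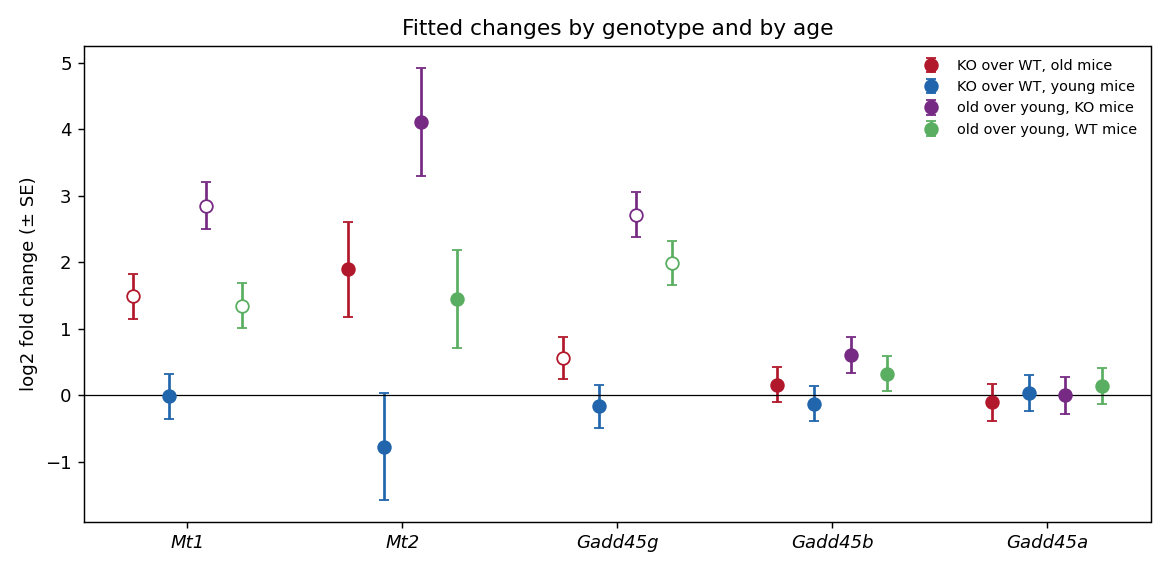
Log2 fold change with its SE (vertical axis) for each of the 5 genes in 4 edgeR comparisons, named in the legend; open symbols are descriptions of Mt1 and Gadd45g in comparisons used to pick them, filled symbols were tested. The age changes of Gadd45g are 2.71 in KO and 1.99 in WT mice, while the 5 young KO over young WT changes lie between -0.77 and 0.04.

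Gadd45b (ENSMUSG00000015312, chromosome 10, 80930073 to 80932204, plus strand), which in mouse cells is known as an NF-kB and TGF-beta target, was at 20.0 and 19.7 TPM in old KO mice, against 28.3 and 15.01 TPM in old WT mice. Young mice had 11.1 and 15.9 TPM in KO, against 13.5 and 17.6 TPM in WT. Both old KO libraries lay above all young libraries, but old WT 2 lay inside the young range. The age change over both genotypes was 0.47 (SE 0.18, edgeR adjusted p = 0.0836), and it passed in 1 of 15 alternatives, DESeq2 (adjusted p = 0.0253). It was 0.61 in KO mice (SE 0.27, adjusted p = 0.195, and 0.0490 with DESeq2) and 0.32 in WT mice (SE 0.27, adjusted p = 0.578). KO over WT was 0.16 in old mice (SE 0.27, adjusted p = 0.772) and -0.13 in young mice (SE 0.27, adjusted p = 0.895).

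Gadd45a (ENSMUSG00000036390, chromosome 6, 67035096 to 67037457, minus strand), the member known as a p53 target, was at 34.4 and 23.9 TPM in old KO mice, against 39.9 and 35.7 TPM in old WT mice. Young mice had 27.3 and 36.2 TPM in KO, against 29.0 and 37.1 TPM in WT. Every group overlapped the young ones, and both old KO libraries were below both old WT libraries, as were those of 32.4% of all genes. The age change over both genotypes was 0.07 (SE 0.18, edgeR adjusted p = 0.790), and KO over WT was -0.11 in old mice (SE 0.27, adjusted p = 0.857) and 0.04 in young mice (SE 0.27, adjusted p = 0.976). Gadd45a shares 309 of its 1820 runs of 31 bases with E230016M11Rik, a noncoding gene that overlaps it on the opposite strand and was at 1.94 to 3.81 TPM. Whether strand was used in counting is not given in the sources used here, so reads of the overlap cannot be told apart. Its spliced transcript Gadd45a-201 held 22.5 to 30.5 TPM, while the retained-intron transcript Gadd45a-204 ran from 0 to 12.7 TPM without following the groups.

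The share of Gadd45g in the family differed between old and young libraries. Summed over the 3 genes, Gadd45 RNA was 81.7 and 86.0 TPM in old KO, 105.4 and 71.0 TPM in old WT, 43.0 and 58.3 TPM in young KO, against 48.7 and 61.3 TPM in young WT. Gadd45g made up 33.4% and 49.4% of the sum in old KO and 35.3% and 28.6% in old WT, against 10.8% and 10.5% in young KO and 12.8% and 10.7% in young WT. Gadd45a held the largest share in 7 of the 8 libraries, and in old KO 2 Gadd45g did. Of the Gadd45g RNA, the retained-intron transcript Gadd45g-202 held 1.14 and 2.76 TPM in old KO and 2.65 and 2.41 TPM in old WT, against 0.157 and 0 TPM in the young KO mice and 0.441 and 0 TPM in the young WT mice. The spliced form thus carried most of the difference with age.

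**Figure D3:**
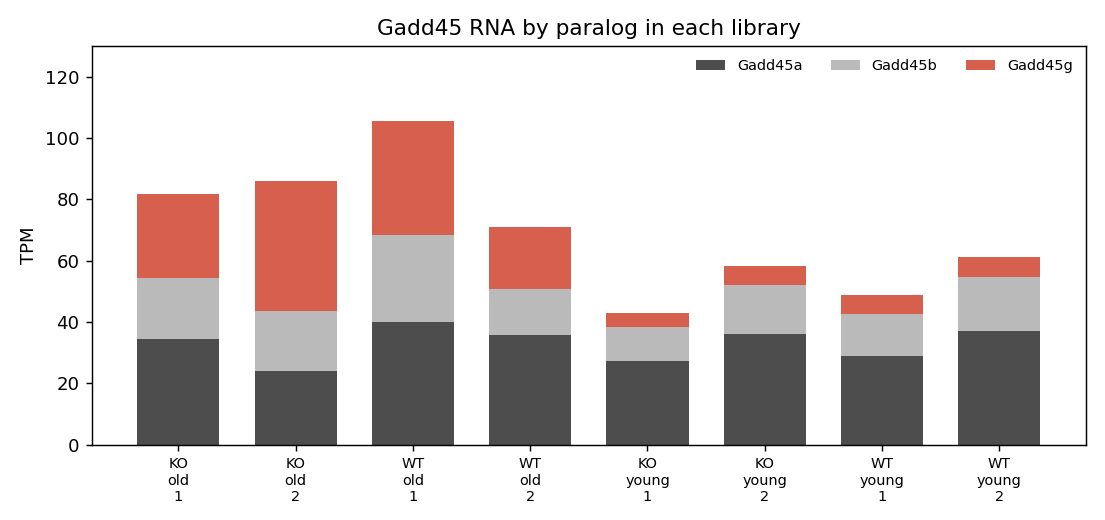
Stacked TPM of Gadd45a, Gadd45b and Gadd45g (vertical axis from 0) in each of the 8 libraries (horizontal axis). The summed level is 71.0 to 105.4 TPM in the old and 43.0 to 61.3 TPM in the young libraries, and the Gadd45g segment is 20.3 to 42.4 TPM in old against 4.62 to 6.57 TPM in young libraries.

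Taken over the members, KO over WT in young mice was the comparison without the old mice, for whose KO levels Mt1 and Gadd45g were picked. Whether the young mice were the reference of that choice is not given. None of the 5 was called by edgeR, where 0.0626% of all genes were. At an unadjusted p under 0.05, and with DESeq2 or limma, the number was also 0. KO over WT at both ages, where 9.98% of genes were called, none of Mt2 (0.76, SE 0.67, adjusted p = 0.481), Gadd45a (-0.04, adjusted p = 0.912) and Gadd45b (0.02, adjusted p = 0.962) passed in edgeR, and 0 did at an unadjusted p under 0.05, with DESeq2 or with limma. The described values were 0.75 for Mt1 and 0.20 for Gadd45g. In that comparison Mt1 was at 0.76 in batch 1 and 0.72 in batch 2, and Mt2 at 1.28 and 0.30.

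Genes around the metallothioneins were read from a list of 30 zinc and copper genes. Their other relatives were hardly found: Mt3 reached 0.265 TPM and Mt4 stayed below it, and neither passed the filter on low counts. Mtf1 was at 16.0 and 17.7 TPM in old KO, 14.1 and 16.5 TPM in old WT, 14.4 and 13.5 TPM in young KO, against 14.3 and 13.1 TPM in young WT. Its fitted age change was -0.21 (edgeR adjusted p = 0.305), opposite in sign to the difference of its TPM levels. Slc30a1, the zinc exporter that is another classical Mtf1 target, had an age change of -0.36 (adjusted p = 0.252) and an old KO over old WT change of -0.01 (adjusted p = 0.990). Of the 28 listed genes that passed the filter, none rose and 6 fell with age over both genotypes, where 4.34% of all genes were called higher and 9.61% lower, with a median of -0.31 against 0.15 over all genes. At an unadjusted p under 0.05, and with DESeq2 or limma, 0 rose as well. The 6 were zinc transporters. Slc39a4, which takes up zinc, was at 4.20 and 4.27 TPM in old KO, 7.24 and 9.94 TPM in old WT, 9.54 and 12.0 TPM in young KO, against 12.2 and 12.8 TPM in young WT (log2 -0.97, edgeR adjusted p = 0.0312). KO over WT at both ages, 3 of the 28 fell and none rose (none fell with litter as a block), where 3.19% of all genes were called higher and 6.78% lower, with a median of -0.29 against 0.10 over all genes. At an unadjusted p under 0.05, 3 rose, as did 3 with DESeq2 and 0 with limma. Slc39a14 was among the 3 that fell (log2 -0.70), with a mean of 10.65 TPM in KO and 10.81 TPM in WT libraries. With limma on log2(TPM + 1) its change was -0.01. In old mice none of the 28 passed in edgeR, while 2 were higher and 9 lower at an unadjusted p under 0.05, 2 and 4 with DESeq2, and 0 and 2 with limma.

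Other inducers of these genes were read in the same way, against the same shares of all genes called, 4.34% higher and 9.61% lower with age and 3.19% higher and 6.78% lower KO over WT at both ages. Of 22 Nrf2 oxidative stress genes, 1 rose and 5 fell with age (median -0.16), and 2 rose and 3 fell KO over WT at both ages (median -0.26). The 1 riser with age is near the share of all genes. The riser was Slc7a11 (log2 1.27, edgeR adjusted p = 0.0464), the cystine transporter. It was low in all libraries, at 0.635 to 4.66 TPM, and old WT 2 (1.02 TPM) lay inside the young range. The risers in KO were the thioredoxin gene Txn1 (0.66, adjusted p = 0.0285) and the peroxiredoxin gene Prdx1 (0.51, adjusted p = 0.0321). Of 13 glucocorticoid-induced genes measured, 1 rose and 2 fell with age (median -0.16), and none rose and 2 fell in KO at both ages (median -0.35), where 1 was higher at an unadjusted p under 0.05, 1 with DESeq2 and 0 with limma. Tsc22d3, the glucocorticoid-induced leucine zipper gene, was at 112.5 and 112.7 TPM in old KO, against 446.7 and 277.5 TPM in old WT. In young mice it was at 176.2 and 261.5 TPM in KO, against 272.1 and 512.8 TPM in WT. It fell by 1.07 in KO at both ages (log2, SE 0.18, edgeR adjusted p = 0.0125), and missed the threshold without old KO 1 (0.0512), old WT 2 (0.0718) or litter 1 (0.0564). The riser with age was Zbtb16 (1.51, edgeR adjusted p = 0.0114), a transcription factor gene that was low in all libraries, at 0.702 to 3.38 TPM. The glucocorticoid receptor gene Nr3c1 (-0.52, adjusted p = 0.0359) and Fkbp5 (-0.78, adjusted p = 0.0213) fell.

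Around the Gadd45 genes, a list of 24 partners and MAP kinases had 1 gene that rose and 7 that fell with age (median -0.41 against 0.15 over all genes), where 4.34% of all genes were called higher and 9.61% lower. The riser was Cdkn1a, which encodes p21, the cell cycle inhibitor and Gadd45 partner. It was at 54.9 and 68.7 TPM in old KO and 40.6 and 16.9 TPM in old WT, against 15.3 and 21.6 TPM in the young KO mice and 10.4 and 13.9 TPM in the young WT mice. Old WT 2 lay inside the young range. The age change was 1.32 (SE 0.22, edgeR adjusted p = 0.0185), and it missed the threshold without young KO 2 (0.0915) or litter 1 (0.355), with limma on log2(TPM + 1) (0.0753) and with the length trend removed (0.0617). Among those that fell were the p38 kinase gene Mapk14 (-0.75, adjusted p = 0.0189) and the JNK kinase gene Map2k7 (-0.80, adjusted p = 0.0196), while Map3k4, the kinase that Gadd45 proteins bind, did not pass (-0.58, adjusted p = 0.0750). KO over WT at both ages, 3 of the 24 rose and 6 fell (median -0.30), where 3.19% of all genes were called higher and 6.78% lower. With litter as a block, 1 rose and 2 fell. The 3 were Cdkn1a (0.91, adjusted p = 0.0325), Cdk1 (0.51, adjusted p = 0.0334) and Pcna (0.43, adjusted p = 0.0475). With litter as a block Cdkn1a (0.0596) and Pcna (0.0594) missed the threshold.

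Of 21 genes of the integrated stress response, the programme of translation control and Atf4 targets, 1 rose and 6 fell with age (median -0.30), where 4.34% of all genes were called higher, a share that 1 of 21 is near, and 9.61% lower. The riser was Nupr1, a stress-induced chromatin protein gene, at 52.3 and 64.6 TPM in old KO and 61.3 and 96.5 TPM in old WT, against 12.2 and 7.43 TPM in the young KO mice and 11.7 and 6.56 TPM in the young WT mice. All old libraries lay above all young ones. Its age change was 2.44 (SE 0.22, edgeR adjusted p = 0.000893) and passed in all 15 alternatives run for this comparison. Like Gadd45g it was high in old mice of both genotypes. In KO at both ages none of the 21 rose in edgeR, at an unadjusted p under 0.05 either, nor with DESeq2 or limma, and 4 fell (median -0.13), where 6.78% of all genes were called lower.

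Of 24 p53 targets, 2 rose and 5 fell with age (median -0.23), where 4.34% of all genes were called higher and 9.61% lower. In KO at both ages 1 rose and 8 fell (median -0.33), where the shares were 3.19% and 6.78%, and with litter as a block none rose and 4 fell. The risers with age were Cdkn1a and Pmaip1 (1.85, edgeR adjusted p = 0.0261), which encodes the death-promoting protein Noxa. Pmaip1 was low in all libraries, at 0.168 to 1.90 TPM. Plk2, a stress-induced kinase gene, was at 1.12 and 1.85 TPM in old KO, against 8.74 and 19.1 TPM in old WT, and at 1.75 and 0.864 TPM in young KO, against 4.34 and 2.90 TPM in young WT. It fell by 2.23 in KO at both ages (log2, SE 0.33, edgeR adjusted p = 0.00887), and missed the threshold without old WT 2 (0.0516).

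Of 25 immediate early genes measured, 2 rose and 1 fell with age (median -0.03), where 4.34% of all genes were called higher and 9.61% lower. In old mice, where 0.204% of all genes were called higher and 0.446% lower, 4 fell in KO and none rose (median -0.50), nor did any at an unadjusted p under 0.05, with DESeq2 or with limma. Fos, part of the AP-1 transcription factor, was at 3.65 and 5.45 TPM in old KO, against 39.9 and 39.5 TPM in old WT, and at 2.03 and 2.92 TPM in young KO, against 1.49 and 2.16 TPM in young WT. It fell by 2.92 KO over WT in old mice (log2, SE 0.39, edgeR adjusted p = 0.0141). The call was lost without old KO 1 (0.122), old WT 2 (0.0993) or the batch term (0.0889). Fos stood highest in old WT, where Gadd45g was also high and Mt1 was below its old KO level. The other 3 were the phosphatase gene Dusp1 (-1.42, adjusted p = 0.0198), Egr1 (-1.33, adjusted p = 0.0281) and Btg2 (-1.32, adjusted p = 0.0326). With litter as a block these 3 missed the threshold, at 0.0804 for Dusp1, 0.0990 for Egr1 and 0.0941 for Btg2, while Fos passed (0.0346).

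**Figure D4:**
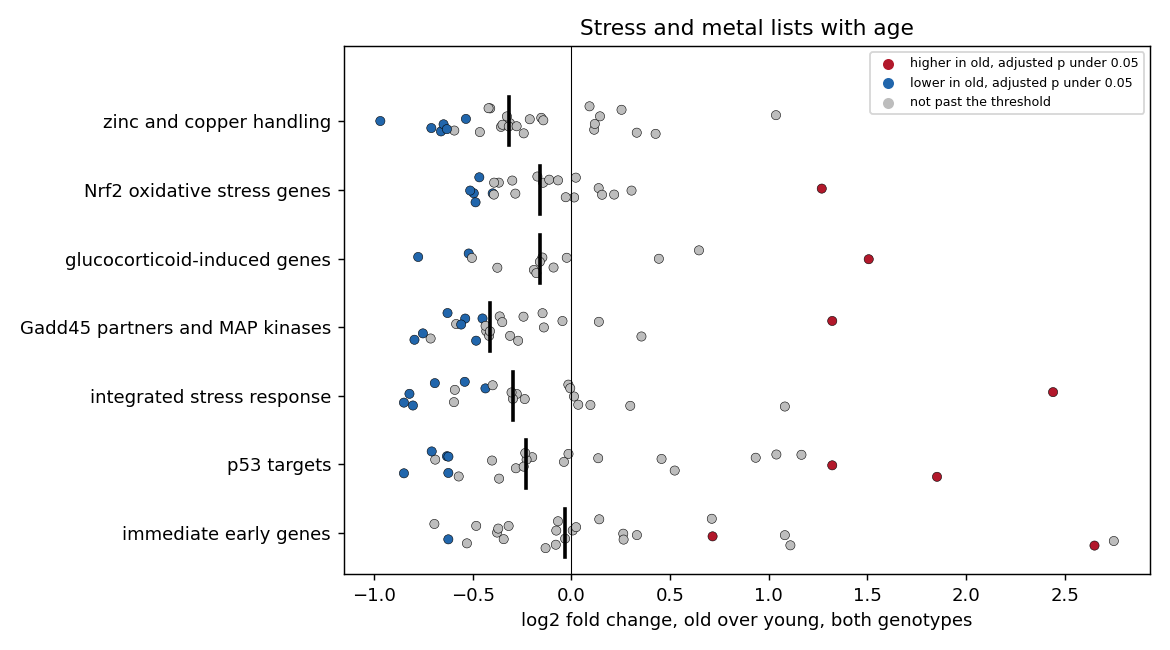
Log2 change old over young at both genotypes (horizontal axis) for each gene of the 7 lists that passed the filter (rows); red and blue points passed adjusted p 0.05 as higher and lower, grey points did not, and bars are list medians. Medians lie between -0.41 and -0.03, with Nupr1 (2.44) and Fos (2.65) among the few red points. For Fos the change old over young was 4.52 in WT mice (edgeR adjusted p = 0.00285). In KO mice, where edgeR called 0.0861% of all genes, no immediate early gene was called higher with age. There 1 was higher at an unadjusted p under 0.05, 1 with DESeq2 and 0 with limma.

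The counts for these lists, like those over all genes, moved when single libraries were left out. With age, no gene of any of the 7 lists was called lower without old KO 1, old KO 2, young KO 2 or litter 1. The same held with the length trend removed and with limma on log2(TPM + 1). Over all genes, 2454 were called lower in the main fit and 10, 165, 15, 7, 44 and 6 in those settings, in that order. With so few calls over all genes, a list without any is no trait of the lists. Without young WT 1 a single zinc and copper gene was called lower (80 over all genes). Without old WT 1 a single Gadd45 partner or kinase and a single glucocorticoid gene were (163 over all genes). KO over WT at both ages, no gene of the 7 lists was called lower without old WT 2, and a single p53 target was without old KO 1 or without litter 1. No gene of the lists was called higher in KO at both ages without old KO 1, old KO 2, old WT 1, old WT 2, young WT 1 or litter 1. Over all genes, 99, 201, 240, 15, 173 and 96 were called higher there, in that order, against 816 in the main fit. Nupr1 was the single gene of the 7 lists called higher with age without young KO 2 or litter 1, or with limma on log2(TPM + 1). Over all genes, 38, 40 and 36 were called higher there, in that order, against 1109 in the main fit.

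The genes whose level followed each member most closely over the 8 libraries were ranked by Pearson correlation of log2(TPM + 1) among 10406 genes, as a description, since the 8 libraries share groups, batches and litters. For Mt1 these were Fkbp11 (0.979), Muc1 (0.953) and Phf11d (0.948). For Mt2 they were Cox17 (0.953), which encodes a copper chaperone, Sec61g (0.952) and Phf11d (0.946). Phf11d was at 46.7 and 48.4 TPM in old KO, against 9.52 and 16.6 TPM in old WT, and at 6.97 and 4.99 TPM in young KO, against 6.01 and 4.03 TPM in young WT. For Gadd45g they were Muc1 (0.961), Cc2d2b (0.958) and Ackr1 (0.951), and Muc1 was at 4.18 and 7.02 TPM in old KO and 3.86 and 3.33 TPM in old WT, against 0.373 to 0.889 TPM in young libraries. For Gadd45a they were Ddit3 (0.979), the integrated stress response gene that encodes Chop, Zrsr2 (0.978) and Diaph1 (0.973). Ddit3 was lowest in old KO 2 (31.8 TPM) and highest in old WT 1 (48.9 TPM), as Gadd45a was. For Gadd45b they were the NF-kB partner gene Bcl3 (0.945), the cytokine signalling inhibitor gene Socs3 (0.941) and Cdkn2d (0.914). Both Bcl3 (116.5 TPM) and Socs3 (61.7 TPM) were highest in old WT 1, the library with the highest Gadd45b.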

How the data were processed

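The authors deposited, per the file headers, estimated counts, TPM and an effective length in bases for each of 115088 transcripts in each of 8 libraries. The submitters' processing notes name kallisto, DESeq2 and mm10, without versions or settings. Transcripts were matched by identifier to GENCODE vM21 (114200 matched, 47311 genes). The 888 others held 0.259% to 0.47% of a library's counts and were left out. For each gene, TPM and estimated counts of its transcripts were added up, and the count sums were then rounded.

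Genes were kept by filterByExpr (minimum count 10, minimum total 15), which left 25543, all 5 members among them. Mt2 reached the cutoff in 4 old and 2 young libraries, with 2 needed. Quasi-likelihood F tests of edgeR 4.0.16 (R 4.3.3) used TMM and Benjamini-Hochberg adjustment over the 25543 genes, with 0.05 as threshold. Comparisons within an age or genotype came from 4 groups plus batch (3 residual degrees of freedom, common dispersion 0.141). Those over both ages or genotypes came from genotype, age and batch (4 degrees of freedom, 0.134). SE is the absolute log2 change over the root of F. Alternatives were DESeq2 1.42.0, limma 3.58.1 on log2(TPM + 1), no filter, a lowess trend on transcript length removed per library, litter as a block, no batch term, each batch alone, and each library left out. Leaving out litter 1 was added after seeing the data. Tables and plots were made in Python 3.11.15 with numpy 2.4.6, pandas 2.3.3 and matplotlib 3.10.9, and the tests were tried on simulated data.

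The labels pair a KO with a WT mouse in each litter. In the fit with 4 groups, the p-values rest on the spread between the 2 mice of a group, with the batch difference removed. In the fit of genotype, age and batch, the residual spread also takes in any genotype by age interaction. Neither fit had a litter term. Old and young mice came from different litters, so age p-values count littermates as independent mice. Within a batch, age cannot be told apart from litter. The 2 libraries of a group differed far beyond counting error (chi-square per degree of freedom 69.7 to 205.9), so none was a repeat deposit. The members and lists were chosen with earlier results of these data known. Named genes are the members, Asxl2, up to 3 called genes per list with the largest change and at least 5 TPM in the higher group, and the 3 genes most like each member. Mtf1, Slc30a1, Map3k4, Mt3, Mt4, Cdk1, Pcna, Slc7a11, Zbtb16 and Pmaip1 fall outside this rule and were chosen after their values were seen, for their roles or to complete a count.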

Additional observations from a re-analysis of the deposited data

How the results depend on the processing

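With 2 mice a group, the number of called genes moved widely. Main counts were 166 KO over WT in old mice (52 higher, 114 lower), 16 in young mice (2, 14) and 2548 at both ages (816, 1732). They were 22 old over young in KO (16, 6), 22 in WT (17, 5) and 3563 in both genotypes (1109, 2454), and 1 for the interaction (1 higher). In that order of the 7 comparisons, DESeq2 called 3344, 389, 5381, 3548, 393, 6735 and 10, and no filter 2517, 421, 4237, 2943, 1015, 6489 and 75. Limma on log2(TPM + 1) called 1553, 0, 2256, 4, 2, 42 and 0, removal of the length trend 225, 11, 1274, 10, 4, 192 and 0, and leaving out litter 1 gave 59, 38, 263, 35, 42, 47 and 9. Without a batch term the counts were 0 and 0 for KO over WT in old and young mice, 6 and 2 for age in KO and WT, and 0 for the interaction. Litter as a replicate block, the pairing in the labels, gave 12 in old, 3 in young and 1162 at both ages. It could be run only for KO over WT, since the mice of a litter share an age. The age call of Mt2 was therefore not put to it. Mt2, Gadd45a and Gadd45b had no KO over WT call with or without it. Calls it ended among the genes named in the text are given beside them. KO over WT at both ages gave 224 in batch 1 and 6975 in batch 2, and age in both genotypes gave 2737 and 1972. With 1 library left out the 7 counts ran from 6 to 3709, 0 to 1271, 83 to 4930, 7 to 3745, 19 to 1523, 53 to 5282 and 0 to 27, where a lone mouse is assumed to vary like the other groups.

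The split of calls also moved with scaling: higher and lower were 121 and 104 KO over WT in old mice, 691 and 583 at both ages and 148 and 44 for age with the length trend removed, and 423 and 1130, 513 and 1743, and 36 and 6 with limma. In young mice they were 76 and 313 with DESeq2, 179 and 242 with no filter, and 3 and 8 with the length trend removed. For age in both genotypes they were 2761 and 3974 with DESeq2 and 2847 and 3642 with no filter, where the median of all genes was 0.55 in place of 0.15. For age in KO and WT, DESeq2 gave 1105 and 2443, and 189 and 204, no filter 920 and 2023, and 554 and 461, the length trend removed 8 and 2, and 4 and 0, and limma 4 and 0, and 2 and 0.

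Among single genes, Gadd45g KO over WT in old mice turned to -0.10 without old KO 2, the lowest of the values with 1 library left out, the highest being 1.02. The age change turned positive for Slc39a14 with limma (0.21), and for Gclc (0.0062) and Txnrd1 (0.0070) with the length trend removed. The cause was not tested, beyond those alternatives' own construction. For Mt1, the old KO over old WT change lay between 0.76 and 1.84 over 15 alternatives. Mt2 had 3 to 15 counts in a young library, which limits the precision of its changes.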
